A study of Drosophila melanogaster with 3 samples.

Results

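Of the 7896 thresholded ChIP-seq summits of the CG9727-eGFP fusion protein in fly embryos, 1464 (18.5%) lay at head-to-head divergent promoters, the subject of the measurements below. Such a promoter serves a pair of protein-coding genes that are transcribed away from each other from starts that lie side by side. A summit was a member when it lay within 500 bp of a protein-coding transcription start site (TSS) that had, within 1 kb, the diverging TSS of another protein-coding gene. The rule used position only, so signal, gene content and sequence were free to vary. A further 1872 summits lay within 500 bp of coding TSSs that have no such partner, called single promoters here, and 4560 lay elsewhere.

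The chromatin came from whole Drosophila melanogaster embryos of mixed sex, aged 0 to 24 h, of a transgenic line (CG9727-GFP) that carries CG9727 with a C-terminal eGFP tag. The fusion was pulled down with an anti-GFP antibody from chromatin sonicated to 200 to 800 bp. All 3 samples are biological replicates of this 1 group, and no line without the tag is compared here, so the values describe where 1 tagged protein was recovered in a mixture of all embryonic cell types and ages. The sequence that drives the transgene is not given in the sources used here, nor whether the embryos of the replicates were collected separately, so that the spread between replicates may be technical. The deposited files are peak lists with no read counts, and depth is therefore unknown. The replicate lists were cut to their 7896 strongest peaks, as many as the thresholded list holds, and a value "over replicates" is the mean ± SD of these 3 lists. Signal is the authors' peak height value, and its scale differs between the thresholded list and the replicate lists.

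In the compact fly genome, neighbouring genes often start back to back and share one stretch of open chromatin from which polymerase departs in both directions. Genes arranged in this way are commonly housekeeping genes, active in most cells. Their promoters tend to lack the focused start sites of developmental genes and to carry words such as the DNA replication-related element (DRE, TATCGATA), bound by the factor DREF, and Motif 1 (GGTCACAC), bound by M1BP. GAGAG, bound by GAGA factor, is by contrast a word of many developmental promoters. CG9727 is the tagged protein, and no role of it at promoters is assumed here.

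Sequences between the diverging starts are shown for 11 of the pairs chosen for naming, because they span the range of what was found: 7 of the 12 summits of highest signal (Chro/Ssl1, Ugalt/eIF2Bbeta, Art3/mRpS10, Fbw5/CG9147, CG5611/Mtl, eIF4EHP/CG18428 and Mkk4/SLIRP2), summits with DRE or Motif 1 (RpL28/eIF1, mtsh/strat, CG13690/RpLP1) and a summit at the low end of the list (GlnRS/RIOK2). Each is the plus strand of dm6 from RefSeq, 5′ to 3′, outside annotated genes, over the gap between the starts or, for gaps above 300 bp, over at most 50 bp to each side of the summit. Capitals mark DRE, its inner part CGATA, Motif 1, the TATA box word TATAAA and the homeodomain core TAATTA on either strand. Marked words may overlap.
Chro/Ssl1 (chr3L:22878985-22879088): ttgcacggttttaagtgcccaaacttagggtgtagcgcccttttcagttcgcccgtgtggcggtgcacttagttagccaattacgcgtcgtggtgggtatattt
Ugalt/eIF2Bbeta (chrX:2703853-2703930): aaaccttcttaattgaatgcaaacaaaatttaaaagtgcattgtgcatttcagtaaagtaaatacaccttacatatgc
Art3/mRpS10 (chr3R:15229409-15229664): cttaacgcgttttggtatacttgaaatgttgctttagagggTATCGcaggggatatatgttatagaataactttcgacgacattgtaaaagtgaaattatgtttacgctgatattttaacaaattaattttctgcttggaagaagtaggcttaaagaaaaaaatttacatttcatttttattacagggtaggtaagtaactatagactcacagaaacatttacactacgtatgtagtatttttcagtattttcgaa
Fbw5/CG9147 (chr2L:6065954-6065996): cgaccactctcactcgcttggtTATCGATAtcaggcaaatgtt
Mkk4/SLIRP2 (chr3R:8650797-8651083): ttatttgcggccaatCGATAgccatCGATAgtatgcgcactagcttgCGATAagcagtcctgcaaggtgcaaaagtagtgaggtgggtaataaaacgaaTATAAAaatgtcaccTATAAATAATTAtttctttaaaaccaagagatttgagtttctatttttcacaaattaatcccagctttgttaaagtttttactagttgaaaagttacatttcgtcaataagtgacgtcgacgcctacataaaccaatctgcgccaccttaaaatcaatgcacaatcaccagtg
CG5611/Mtl (chr3R:27636118-27636218): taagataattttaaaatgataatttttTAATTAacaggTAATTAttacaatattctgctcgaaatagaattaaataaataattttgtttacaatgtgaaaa
eIF4EHP/CG18428 (chr3R:24109145-24109245): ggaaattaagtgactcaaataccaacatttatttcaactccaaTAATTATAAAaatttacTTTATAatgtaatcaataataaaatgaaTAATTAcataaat
RpL28/eIF1 (chr3L:3222985-3223085): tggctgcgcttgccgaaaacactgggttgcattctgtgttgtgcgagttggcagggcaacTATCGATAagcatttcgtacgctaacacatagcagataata
mtsh/strat (chr2L:8320229-8320327): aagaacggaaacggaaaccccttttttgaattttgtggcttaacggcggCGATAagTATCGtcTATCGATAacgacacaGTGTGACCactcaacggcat
CG13690/RpLP1 (chr2L:419653-419951): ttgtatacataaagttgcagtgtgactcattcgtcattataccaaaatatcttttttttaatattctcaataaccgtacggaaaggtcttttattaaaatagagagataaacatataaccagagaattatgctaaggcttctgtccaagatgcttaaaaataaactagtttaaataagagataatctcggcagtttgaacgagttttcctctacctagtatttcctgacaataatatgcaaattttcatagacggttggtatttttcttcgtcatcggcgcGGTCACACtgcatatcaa
GlnRS/RIOK2 (chr3R:25265722-25265843): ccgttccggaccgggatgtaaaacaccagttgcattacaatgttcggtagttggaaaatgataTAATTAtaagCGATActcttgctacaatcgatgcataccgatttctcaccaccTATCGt

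The printed stretches of the strongest summits had no marked word in common. The printed stretches of Chro/Ssl1 and Ugalt/eIF2Bbeta hold none of them, that of Art3/mRpS10 holds a CGATA on the minus strand from base 42, and that of Fbw5/CG9147 a DRE from base 23. The Chro/Ssl1 and Fbw5/CG9147 summits lie outside their printed stretches. In CG5611/Mtl and eIF4EHP/CG18428 the summit is base 51 of the printed window, and the GC content of these windows was 15.8% and 17.8%. The TAATTA words of CG5611/Mtl begin at bases 28 and 39, and in eIF4EHP/CG18428 a TATAAA begins at base 48 and another, on the minus strand, at base 61. In RpL28/eIF1 the DRE begins at base 61, next to the summit at base 51. In mtsh/strat a DRE at base 64 and a Motif 1 at base 80 lie on the side of strat, and the window as a whole had 45.5% GC.

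Pairs of genes with this arrangement were common in the genome. Of 13945 coding genes, 5052 (36.2%) were in at least 1 of 2667 head-to-head pairs. A thresholded summit lay within 500 bp of a paired start in 1301 pairs (48.8%; 48.7 ± 1.68% over replicates, n = 3). In 1144 of those pairs (87.9%) the window of each gene held a summit, which the overlap of the windows allows with 1 summit. Pairs with a summit and pairs without one had similar median distances between their starts, 304 and 296 bp.

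Genes in a head-to-head pair had a summit more often than genes with a single promoter. Over all coding genes, 27.0% had a summit within 500 bp. Among paired genes it was 2324 of 5052 (46.0%; 45.8 ± 1.26% over replicates), and among genes with no diverging partner it was 1351 of 8893 (15.2%; 15.3 ± 0.442%). The paired share was 47.0%, 44.5% and 45.9% in replicates 1, 2 and 3, against 15.8%, 15.1% and 15.1% for single promoters, so the groups were far apart in each replicate. A summit in a shared gap counts for both genes, which raises the paired share. When each summit was counted only for the coding TSS nearest to it, the paired share was 27.5% (27.5 ± 0.843% over replicates) and the single share 15.1% (15.2 ± 0.451%). This way of counting lowered the difference from 30.8 to 12.4 percentage points and left its direction as it was.

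These comparisons between promoter types were tested by an exact 2-sided sign-flip permutation test over the 3 replicates, with Benjamini-Hochberg adjustment over 19 comparisons. With 3 replicates the smallest possible p is 0.25, so the design cannot reach 0.05. The difference in genes bound had this exact permutation p of 0.25 (adjusted p = 0.279) and the same direction in 3 of 3 replicates. The same p and adjusted p belong to every comparison below between head-to-head and single promoters for which 3 of 3 replicates gave the same direction.

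Most summits lay in the gap between the starts. Counted per length of DNA, the gaps held 1150 summits per Mb (1132 ± 20.6 over replicates), and the remaining parts of the same 500 bp windows held 77.0 per Mb (82.2 ± 17.8). Replicate 2 had the lowest density in these flanks, 64.0 per Mb, and replicate 1 the highest, 99.6 per Mb, while the gaps held between 1108 and 1145 per Mb in each replicate. The DNA upstream of single promoters held 255 summits per Mb (256 ± 5.15), and the DNA downstream of them 55.8 (58.5 ± 7.17). The gap between diverging starts was thus 4.50 times as dense as the upstream side of single promoters in the thresholded list, and denser in 3 of 3 replicates. These regions are unlike, as a gap lies upstream of 2 starts at once and the single side reaches 500 bp from 1 start. The part of this in the ratio was not tested.

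Each member was assigned to the TSS pair whose nearer start was closest. By that assignment 1140 of 1464 summits (77.9%; 77.1 ± 2.07% over replicates) lay between the starts of their pair, and 1274 (87.0%) lay between the starts of some head-to-head TSS combination of the annotation. Of the 324 summits outside their assigned gap, 217 were within 100 bp of the nearer start. The median member lay 76 bp upstream of the nearer start (72.3 ± 1.53 bp over replicates), with quartiles at 10 and 131 bp. Summits at single promoters lay a median of 154.5 bp upstream. These distances are unlike, as a summit between 2 starts is measured to the nearer one, which limits its distance in a short gap. The part of this in the difference was not tested.

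The share of pairs with a summit varied with the distance between the starts (see the plot of pairs bound by spacing). For pairs with starts 1 to 100 bp apart, 166 of 429 had a summit (38.7%; 39.5 ± 2.12% over replicates). For over 100 and up to 200 bp it was 138 of 357 (38.7%; 39.7 ± 1.13%). The share was higher for over 200 and up to 300 bp, 333 of 542 (61.4%; 60.2 ± 1.19%), and for over 300 and up to 500 bp, 391 of 667 (58.6%; 57.8 ± 2.77%). For over 500 and up to 1000 bp it was 273 of 672 (40.6%; 41.3 ± 1.30%). The classes between 200 and 500 bp lay above the other 3 classes in each of the 3 replicates, by more than the spread between replicates, and these classes were described with no test.

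**Figure D1:**
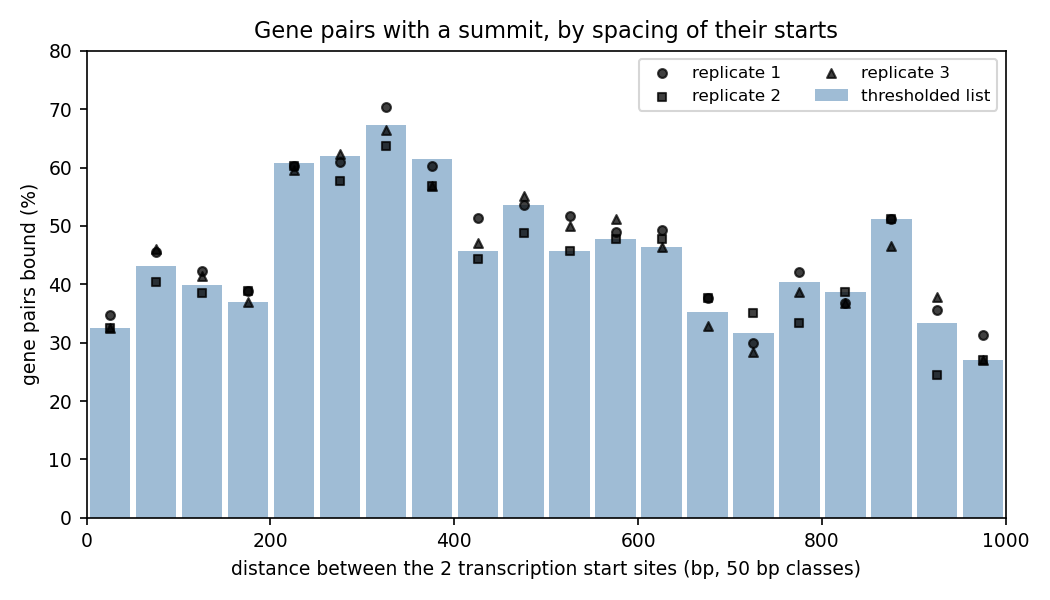
Share of head-to-head gene pairs (%, vertical axis) with a summit within 500 bp of a paired start, by the distance between the starts in classes of 50 bp (horizontal axis). Bars show the thresholded list and symbols the 3 replicates; the bar that ends at 200 bp stands at 36.9%, the bar that ends at 250 bp at 60.7% and the bar that ends at 350 bp, the highest, at 67.3%.

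In steps of 50 bp, the share was 36.9% of 149 pairs over 150 and up to 200 bp apart and 60.7% of 242 pairs over 200 and up to 250 bp apart. The replicates gave 38.9%, 38.9% and 36.9% in the first of these classes and 60.3%, 60.3% and 59.5% in the second, with no overlap. Above 650 bp the classes of 50 bp held 43 to 85 pairs each and ranged from 27.1% to 51.2%. At the limit of the rule, 13 of the 48 pairs in the last 50 bp below 1000 bp had a summit, and so did 10 of the 44 pairs in the next 50 bp, which the rule leaves out. Histone genes, which sit in a tandem array of near-identical copies, made up 39 of the pairs over 100 and up to 200 bp apart, and without histone pairs the share of that class was 43.1%.

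Where a summit sat also depended on the spacing, here that of the TSS combination to which the summit was assigned. The shares of pairs above and the summits per pair below use the closest starts of each gene pair. The classes therefore do not hold the same summits. In pairs over 200 and up to 300 bp apart, 83.9% of 360 summits were between the starts (82.5% in the class over 500 bp), and the median summit was 51 bp from the midpoint and 83 bp from the nearer start. In pairs over 300 and up to 500 bp apart, 88.4% of 492 summits were between the starts, a median of 81.3 bp from the midpoint and 109 bp from the nearer start. In pairs over 500 bp apart, the 355 summits were spread more widely, a median of 193 bp from the midpoint and 155 bp from the nearer start. At 1 to 100 bp apart, 25.6% of 125 summits were in the gap, a median of 50 bp from the nearer start and 76.5 bp from the midpoint. A short gap leaves little room for a summit, so these positions are a description.

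**Figure D2:**
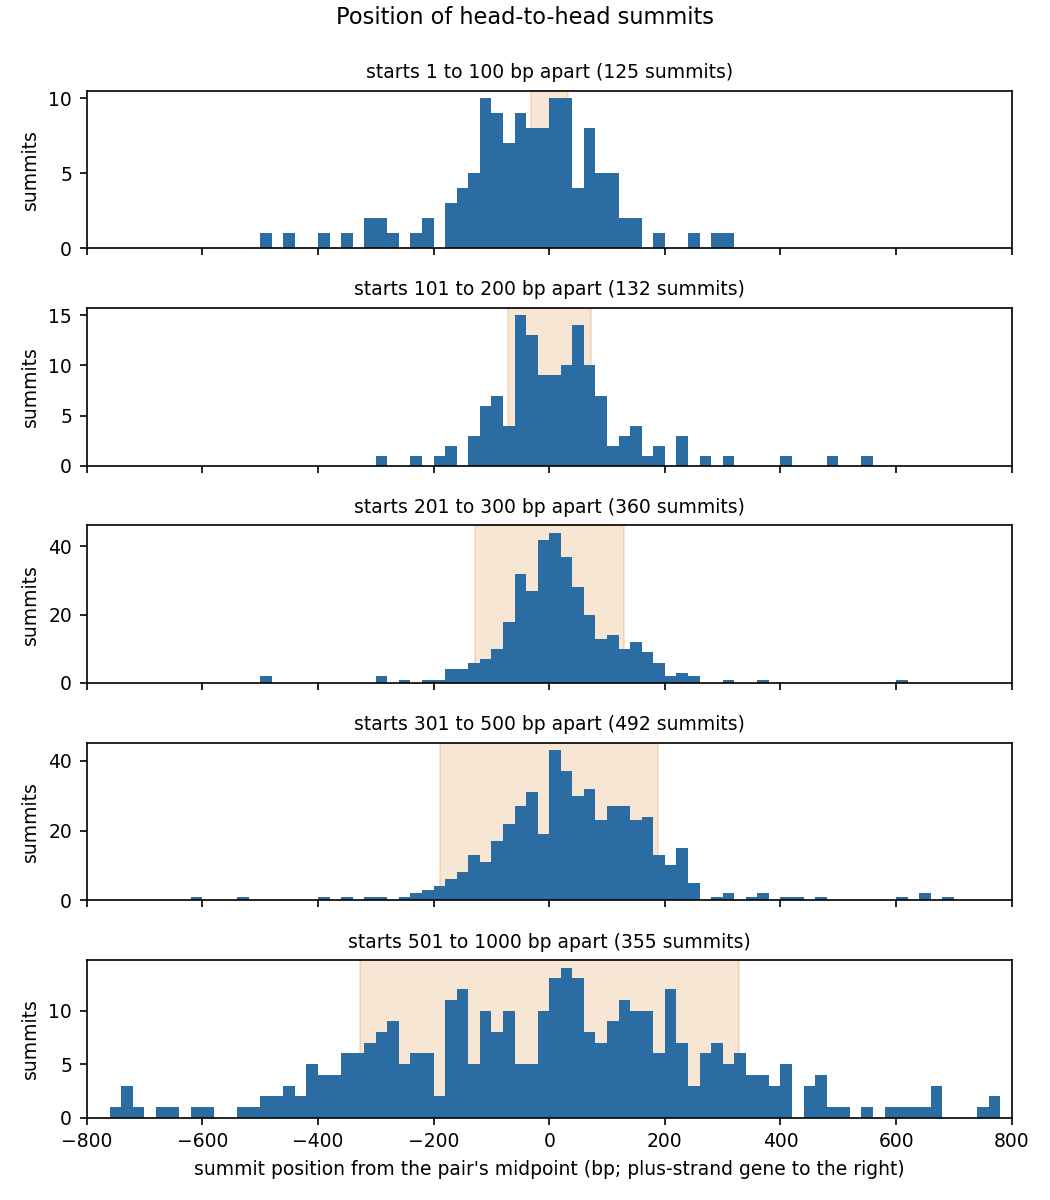
Number of thresholded head-to-head summits (vertical axis, 20 bp bins) by their position from the midpoint of the assigned TSS pair (horizontal axis, bp, plus-strand gene to the right), in 5 spacing classes. The shaded band is the median gap of the class; the summits of the class of 200 to 300 bp gather around the midpoint, and those of the class over 500 bp spread over the gap.

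Most pairs had a single summit assigned to them. Of 1194 pairs to which a summit was assigned, 934 held 1 summit, 250 held 2 and 10 held 3 or more. The share with 2 or more was 16.1% for starts up to 100 bp apart (17.3 ± 2.69% over replicates), 19.2% at 100 to 200 bp (18.2 ± 1.52%), 15.5% in the class of 200 to 300 bp (17.3 ± 3.82% over replicates), 27.3% at 300 to 500 bp (25.9 ± 1.13%) and 26.5% above 500 bp (24.9 ± 2.63%). Elp6/Dic1, l(1)G0320/RpS28b and RpS7/Anp were among the pairs with 3 assigned summits. In Elp6/Dic1 the summit at 3R 13364759 belonged to starts 350 bp apart. Those at 3R 13367248 and 13367448 shared other starts of the same genes, 622 bp apart. The summit at 13367448 had a match within 100 bp in the list of replicate 3 alone. In l(1)G0320/RpS28b (starts 873 bp apart on the X), the summit of highest signal, 845, lay 36 bp upstream of RpS28b, a small-subunit ribosomal protein gene, and the second, 612, lay 125 bp upstream of l(1)G0320. The third, 188, lay 18.5 bp from the midpoint and had a match within 100 bp in the list of replicate 3 alone.

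Summits at head-to-head promoters had a slightly higher signal than those at single promoters. The median signal in the thresholded list was 314 for members (lowest 158, highest 4089), 289 for single promoters and 268 for other summits. The medians of members were 116, 80.9 and 128 in replicates 1, 2 and 3, and those of single promoters 108, 74.6 and 117. The ratio was 1.08 in the thresholded list and 1.07, 1.08 and 1.10 in the replicates, with head-to-head summits higher in 3 of 3. Its size and direction depended on the peaks used. The log2 ratio of 0.12 in the thresholded list was 0.24 for summits within 200 bp of the start, and over the complete replicate lists it was 0.58. Within the 3948 strongest peaks of each list the log2 ratio was -0.13 in the thresholded list and -0.09 over replicates.

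Head-to-head promoters made up a larger part of the strong summits than of the weak ones. They were 21.3% of the 789 strongest thresholded summits and 13.7% of the 789 weakest. In the replicate lists, the 789 strongest held 18.9%, 24.0% and 22.2% and the 789 weakest 15.3%, 11.3% and 14.3%, with no overlap. Members among the strongest lay between the starts in 81.5% of cases, and those among the weakest in 61.1%. Among 19812 pooled peaks that overlap no thresholded peak, 5.31% lay at head-to-head promoters and 48.1% of these were between the starts. Single promoters, too, were more frequent among the 789 strongest (33.3%) than among the weakest (23.1%).

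The replicates recovered members slightly more often than single-promoter summits. A summit was recovered when a summit among a replicate's 7896 strongest peaks lay within 100 bp. This held for 85.6%, 78.8% and 86.9% of the 1464 members (83.7 ± 4.37%, n = 3) and for 82.2 ± 4.16% of single-promoter summits. The difference was positive in 3 of 3 replicates, with a mean of 1.59 percentage points and an SD of the within-replicate differences of 0.219 points. With matching within 50 bp the mean difference was 0.26 points (exact permutation p = 0.75), and within 200 bp it was 2.88 points. All 3 replicates recovered 945 members (64.5%), near the 62.5% of all thresholded summits. The thresholded list was made from these same 3 replicates, so high recovery follows in part from how the list was made.

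The strongest members were recovered in all replicates at high ranks. Chro/Ssl1 had the member of highest signal (3L, peak 22878650 to 22879170, rank 5 of the whole list). Its signal was 4089 in the thresholded list and 1322, 1134 and 1650 in replicates 1, 2 and 3. Chro encodes Chromator, a chromodomain protein of chromosomal interbands and the spindle, and Ssl1 a subunit of the general transcription factor TFIIH. This summit (3L 22878902) lay 82 bp inside the annotated transcript of Chro, outside the 105 bp between the starts.

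The next was Ugalt/eIF2Bbeta, a UDP-galactose transporter gene beside a subunit gene of the exchange factor for translation initiation factor eIF2. Its summit (X 2703880) had a signal of 3978, and 1224, 1152 and 1623 in the replicates. With starts 719 bp apart, the summit lay 28 bp upstream of Ugalt and 691 bp upstream of eIF2Bbeta, and so belonged to one end of the gap. Art3/mRpS10, an arginine methyltransferase gene beside a gene of the mitochondrial small ribosomal subunit, was arranged otherwise. Its summit (3R 15229535) lay 127 bp from one start and 130 bp from the other, 1.5 bp from the midpoint, with a signal of 3390 and replicate values of 1118, 917 and 1368.

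The remaining 9 of the 12 pairs of highest signal were Fbw5/CG9147, PNPase/Gprk2, CG5611/Mtl, CG11309/CG7632, eIF4EHP/CG18428, mRpL41/CG8079, Hrd3/PTPMT1, mRpS23/CenG1A and Mkk4/SLIRP2, with signals from 2247 to 3024. Of these 12 summits, 9 lay between the starts, while those of Chro/Ssl1, Fbw5/CG9147 and PNPase/Gprk2 lay outside the assigned gap. Hrd3/PTPMT1, an ER-associated degradation gene beside a mitochondrial phosphatase gene, had its summit 23 bp from the midpoint of starts 322 bp apart. In Mkk4/SLIRP2, Mkk4 encoding a MAP kinase kinase, it was 16 bp from the midpoint of starts 288 bp apart. A gap here is that between the assigned starts and can lie within an annotated gene. The annotation of Hrd3 reaches 3R 23758557, past its summit (3R 23758155) and past the PTPMT1 start (3R 23758339). That of CG11309 reaches 3L 21304658, past its summit (3L 21304560). Replicate 2 had the lowest and replicate 3 the highest signal at each of the 12 pairs, and the median signals of the members follow the same order.

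**Figure D3:**
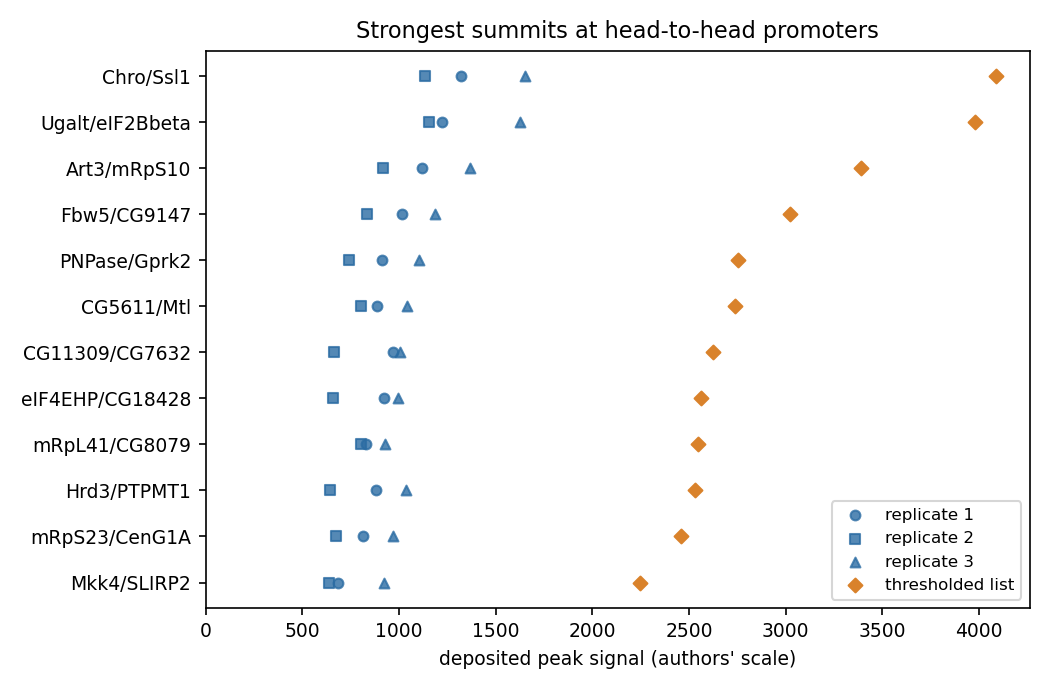
Deposited peak signal (horizontal axis, the authors' scale, from 0) of the 12 head-to-head summits of highest signal, by gene pair (minus-strand gene first). Orange diamonds are the thresholded list and blue symbols the 3 replicates; at each pair replicate 2 is lowest and replicate 3 highest, from 1134 to 1650 at Chro/Ssl1 and from 637 to 921 at Mkk4/SLIRP2.

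Among summits assigned to starts at most 100 bp apart, that of Fer1HCH/Fer2LCH had the highest signal, 2110 (711, 496 and 913 in the replicates). These genes encode the heavy and light chains of ferritin, the iron storage protein, and form a pair of functional partners. The starts are 98 bp apart and the summit (3R 30388468) lay outside the gap, 290 bp upstream of the start of Fer1HCH and 192 bp inside the transcript of Fer2LCH. The annotation of Fer2LCH begins at 3R 30387804, so the 2 annotated genes overlap. The members of lowest signal were GlnRS/RIOK2, a glutaminyl-tRNA synthetase gene beside an atypical protein kinase gene, with 158.4, and Hsf/Pcl, the heat shock factor gene beside a Polycomb-group gene, with 158.3. GlnRS/RIOK2 had no match in replicate 1 and signals of 20.5 and 65.7 in replicates 2 and 3.

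Few summits lay near the limit of the 500 bp window. The 12 summits in the last 50 bp inside it had a median signal of 246, and the 12 summits in the 50 bp just outside it had 368. The autosomal arms 3L and 3R had the highest shares of pairs with a summit, 52.7% (52.1 ± 1.65% over replicates) and 53.6% (54.1 ± 1.89%). The shares of 2L, 2R and X were 46.2%, 44.9% and 45.4%, and none of the 11 pairs of chromosome 4 had a summit in the thresholded list or in any replicate list.

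The gene kinds below are lists drawn from gene symbols, so a list can hold genes of other roles. Genes of the cytoplasmic ribosome had the highest share among the kinds with 10 or more paired genes: 49 of 53 paired genes (92.5%; 91.2 ± 1.09% over replicates) had a summit, against 46.0% of all paired genes. These genes encode the protein subunits of the ribosomes of the cytosol. Those with a single promoter were also mostly bound, 25 of 33 (75.8%; 80.8 ± 4.63%). In 48 of the 49 paired genes the summit lay nearer to the ribosomal protein start than to any other coding start, and over the 49 genes the median distance to that start was 41 bp (quartiles 19 and 70 bp).

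RpS27 had the strongest of these summits (3R 25247528), with a signal of 1917 and values of 553, 506 and 827 in the replicates. It lay 14 bp from the RpS27 start and 130 bp from that of Nup37, a nuclear pore gene that shares the promoter. RpL7, which encodes a protein of the large subunit, followed with 1886 (645, 492 and 756), 44 bp from its start. RpL5 and RpS15Ab were the first paired members without a summit by alphabetical order.

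Genes of the mitochondrial ribosome showed another arrangement. Of 60 paired genes 37 had a summit (61.7%; 63.3 ± 6.01% over replicates), and of 17 single genes 2 had one (11.8%; 7.84 ± 3.40%). The summit was nearest to the mitochondrial ribosomal protein start in 13 of the 37, and over the 37 genes the median distance to that start was 159 bp (quartiles 109 and 221 bp). Over all paired genes with a summit it was nearest to the gene's own start in 1243 of 2324 (53.5%). The summits of the 37 genes lay a median of 124 bp from the nearest start of another gene. mRpS10, mRpL41 and mRpS23 had the strongest, with signals of 3390, 2547 and 2456. The mRpS23 summit (2L 13835450) lay 378 bp from its start and 114 bp from that of CenG1A, an Arf GTPase-activating protein gene. bonsai and mRRF2 had none.

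For autophagy and vesicle traffic genes, the shares over all coding genes, 46.0% paired and 15.2% single, are again the background. Of 65 paired genes 42 had a summit (64.6%; 67.2 ± 2.35% over replicates), of which 18 were nearest to the gene's own start, and of 34 single genes 2 had one (5.88%; 9.80 ± 1.70%). Vps33B, a vesicle tethering gene, had a signal of 1802 (615, 491 and 697 in the replicates), Atg2 had 899 and Atg17 had 840. Atg1, the kinase that starts autophagy, and Atg10 had none. RNA polymerase II and Mediator genes had a summit in 24 of 43 paired genes (55.8%; 56.6 ± 2.69%) and in 3 of 17 single genes. MED27 (1026) and Polr2B (979), the latter for the second largest polymerase subunit, were the strongest, and MED1 and MED10 had none.

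The other housekeeping lists ranged from 40.6% to 83.3% of their paired genes, beside 46.0% of all paired genes. Aminoacyl-tRNA synthetases, which charge tRNAs with amino acids, had a summit in 14 of 24 paired genes, led by IleRS (1381). Oxidative phosphorylation genes had one in 21 of 47, led by ND-ASHI (1155) of respiratory complex I. Proteasome genes had one in 11 of 26, led by Rpn5 (691), translation factors in 13 of 28, led by eIF4EHP (2564), and spliceosome genes in 15 of 29, led by U2af50 (975). Replication and cell cycle genes had one in 13 of 32, led by Cdk12 (783), nuclear pore genes in 9 of 18 and RNA exosome and ribosome biogenesis genes in 12 of 22, led by Wdr37 (1803). The symbols alone placed Cdk12 and Wdr37 in these lists, and neither need act in the process named. Mitochondrial import, with 6 paired genes, had 5 with a summit, led by Mic26-27 (930), which the symbol list takes in although it encodes a subunit of the MICOS complex of the mitochondrial inner membrane and not an import factor.

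Kinds of genes used in few tissues or cell cycle phases were at the other end. No paired cuticle protein gene (0 of 13) and no paired chemosensory receptor or odorant-binding protein gene (0 of 37) had a summit, in the thresholded list or in any replicate list. Genes of these kinds with single promoters rarely had one either, 1 of 108 and 3 of 193 (histones 1 of 28). Beside these stand 46.0% of all paired and 15.2% of all single genes. Of 88 paired histone genes 3 had one, the variant genes His2Av (708), His3.3A (221) and His4r (161), and the 42 pairs made of 2 histone genes had none. Because the copies of the histone array are near-identical, reads there may not be placed uniquely and the authors' treatment of such reads is not given in the sources used here. Cytochrome P450 and other detoxification enzyme genes had a summit in 6 of 27 paired genes, led by Ugt35D1 (499), and in 11 of 128 single genes. Paired genes with no name beyond a CG number had one in 704 of 1757 (40.1%).

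**Figure D4:**
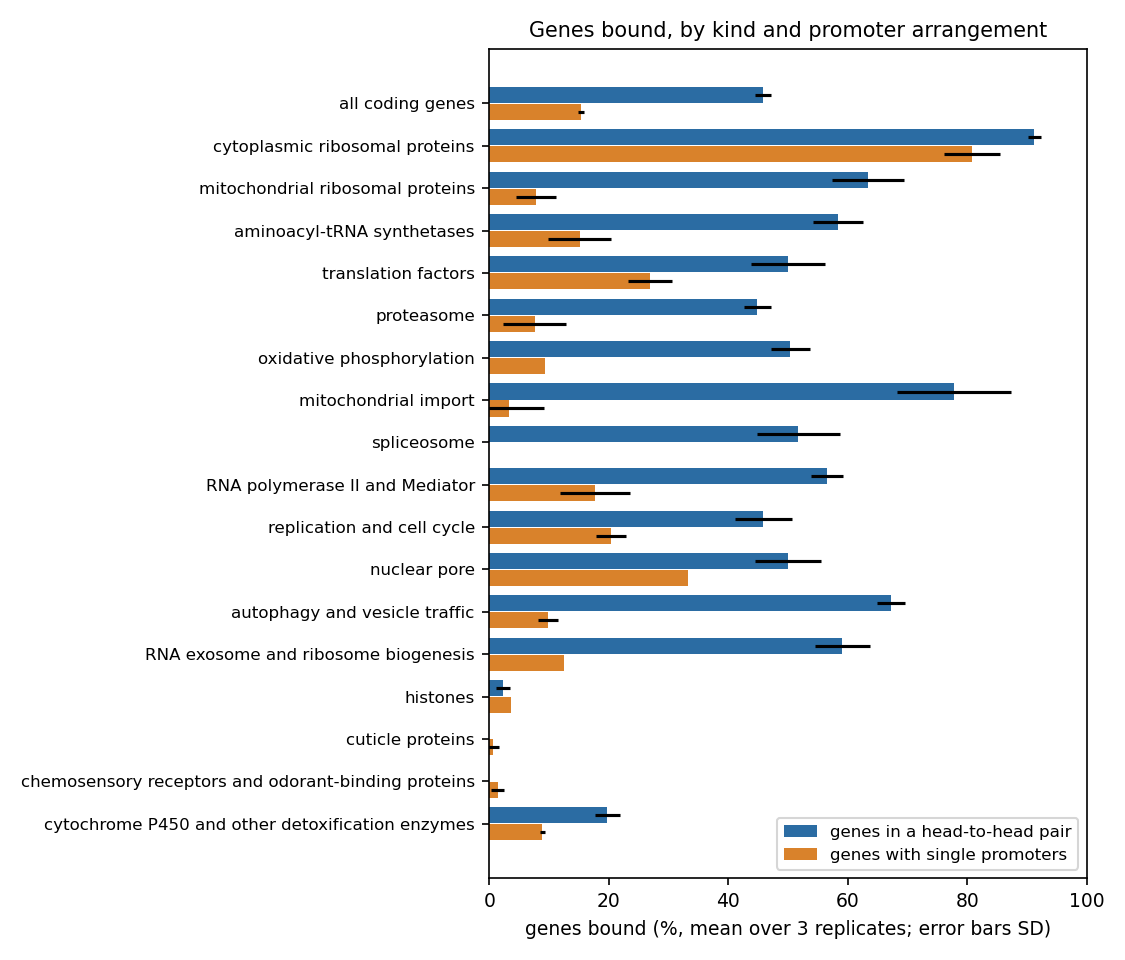
Share of genes with a summit within 500 bp (%, horizontal axis, mean over 3 replicates with SD as error bars) by gene kind, for genes in a head-to-head pair (blue) and genes with single promoters (orange). Cytoplasmic ribosomal protein genes are high in both arrangements (91.2% and 80.8%), and mitochondrial ribosomal protein genes differ between them (63.3% and 7.84%).

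In 14 of the 17 kinds with a functional name the paired share was above the single share in the thresholded list. Histones, cuticle proteins and the chemosensory list were the 3 exceptions. When each summit was counted only for its nearest coding TSS, the paired share was higher in 13 kinds. Some single shares rest on few genes, such as 0 of 5 spliceosome genes and 0 of 3 nuclear pore genes (33.3% over replicates). Of 44 pairs with a member of a named kind on both sides, leaving out pairs of 2 histone genes, 16 had a summit (36.4%), beside 48.8% of all pairs. Many of the 44 pairs hold a cuticle, chemosensory or detoxification gene, and of those only GstE10/GstE1 and Ugt302K1/Ugt302E1 had a summit. A larger part of the remaining pairs had one, so the share of 36.4% does not stand for them. Pairs with a summit included Cdk1/mRpS7, Atg7/Sec6, RPA1/Mcm2 of DNA replication, mRpL39/Prosbeta2 and RpL28/eIF1, whereas Nup75/MED9, TrpRS/Vps16A and mRpL55/ATPsynD had none. These examples were chosen after their values were seen. CG9727 itself (FBgn0037445) is in a pair with Zif, a zinc finger protein gene, with starts 412 bp apart (3R 6456676 and 6457088), and this promoter had no summit.

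Paired genes with a summit were longer than those without one, with medians of 2618.5 and 2008 bp (2641 ± 26.2 and 2004 ± 6.21 bp over replicates). They were shorter than single-promoter genes with a summit, at 5413 bp, while single-promoter genes without one had a median of 1851.5 bp. A single exon was less frequent among paired genes with a summit (7.62%; 7.30 ± 0.153% over replicates) than among those without (15.8%; 16.0 ± 0.189%). More than 1 annotated coding TSS was found in 36.8% and 27.2% of them. At single promoters, a single exon was found in 6.44% of genes with a summit and 19.0% of those without. More than 1 TSS was found in 49.6% and 19.0%. These contrasts are thus not particular to pairs, and a gene with more starts can have more windows in which a summit counts.

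The sequence at the summits differed between promoter types. Words were counted on both strands over the 50 bp to each side of the summit, and 12 words were searched. DRE (TATCGATA) was in 86 of 1464 member windows (5.87%; 5.90 ± 0.585% over replicates) and in 2.40% of single-promoter windows (2.26 ± 0.472%), while 2.28% of the windows of this width at all 19607 coding TSSs, centred 100 bp upstream, held it. CGATA, which every DRE contains, was in 26.0% against 16.7% (19.5% of all promoter windows). Motif 1 was in 3.21% against 1.55% (1.24% of all). TATAAA was in 24.5% against 19.1% (16.3% of all). These 4 words were more frequent at members in 3 of 3 replicates.

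GAGAG was less frequent at members, 6.28% (7.55 ± 0.209% over replicates) against 13.4% (13.3 ± 0.821%) at single promoters and 15.9% of all promoter windows, in 3 of 3 replicates. TAATTA was in 11.5% against 8.49% (8.25% of all), GATAA in 26.8% against 23.5% (25.2% of all), the E-box CAGCTG in 5.67% against 4.97% (5.50% of all), Motif 7 (CATCNCTA) in 3.07% against 2.14% (1.20% of all) and TCAGT of the initiator in 15.0% against 16.9% (16.4% of all), each with 1 direction in 3 of 3 replicates. The CTCF core AGGNGGC (1.91% against 2.35%, 2.80% of all; adjusted exact permutation p = 0.528) and the Zelda word CAGGTAG (0.546% against 0.321%, 0.658% of all; adjusted exact permutation p = 1) had mixed directions. The median GC content of the windows was 32.7% at members, 35.6% at single promoters and 38.6% over all coding promoters. Its part in the word shares was not tested.

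A comparison inside the head-to-head arrangement gave another order. Over the 50 bp to each side of the midpoint of the closest starts, DRE was in 4.00% of the 1301 pairs with a summit (4.17 ± 0.332% over replicates) and in 5.71% of the 1366 pairs without one (5.53 ± 0.282%). CGATA was in 20.6% and 26.4%, Motif 1 in 2.15% and 3.44%, CAGCTG in 5.0% and 8.42%, and GATAA in 25.6% and 30.1%. Each of these was lower in pairs with a summit in 3 of 3 replicates. TATAAA was in 26.7% (26.8 ± 0.545%) and 19.0% (18.8 ± 0.420%), and TAATTA in 14.7% (14.2 ± 0.401%) and 8.05% (8.45 ± 0.569%), higher in pairs with a summit in 3 of 3. The differences in TATAAA and TAATTA exceeded the spread between replicates and were given no test. The median GC content was 28.7% at midpoints with a summit and 35.6% at those without, and its part was not tested.

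The midpoint comparison depended in part on spacing, since a window in a short gap reaches into the genes. Within pairs over 200 and up to 500 bp apart, a range chosen after the values were seen, TATAAA was in 33.4% of 724 pairs with a summit and 26.0% of 485 without, and TAATTA in 19.5% and 10.1%. DRE was rare there and turned its order, with 1.38% and 0.825%, whereas CGATA, with 12.2% and 15.5%, kept its order. Motif 1, with 0% and 0.412%, was too rare there to give an order. CAGCTG was in 1.66% and 3.09%, and GATAA in 21.5% and 27.8%. The median GC content of these windows was 25.7% and 28.7%.

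**Figure D5:**
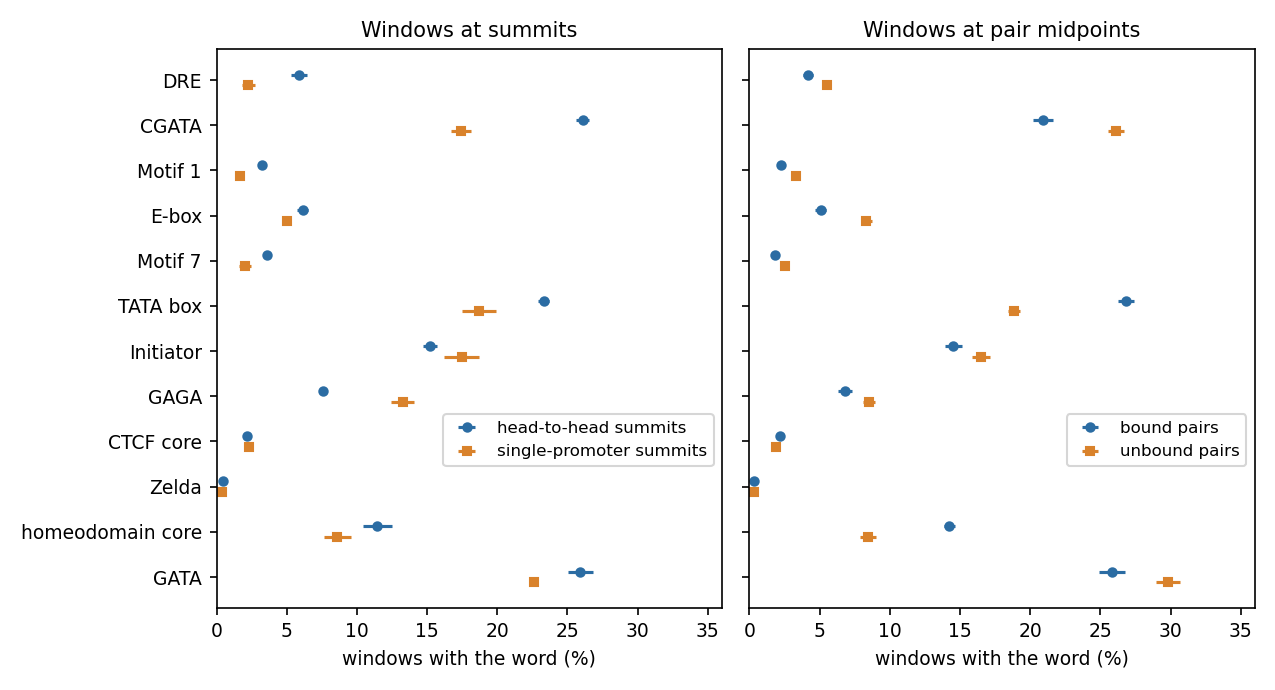
Share of windows (50 bp to each side) holding each of 12 words (%, horizontal axis; mean over 3 replicates, error bars SD), at summits of head-to-head and single promoters (left) and at midpoints of pairs with and without a summit (right). DRE is higher at head-to-head than at single summits (5.90% and 2.26%) and lower at bound than at unbound midpoints (4.17% and 5.53%), and TATAAA is higher at head-to-head summits and at bound midpoints.

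Signal among the members differed with the word in the window. Members with TATAAA had a median signal of 375 and those without 298, a ratio of 1.26 (1.25 ± 0.0603 over replicates), and members with TAATTA had 381 and 308, a ratio of 1.24 (1.22 ± 0.0733). Members with DRE had a median of 281 and those without 316, a ratio of 0.891 (0.869 ± 0.0547), and those with Motif 1 had 241 and 316, a ratio of 0.764 (0.801 ± 0.0667). Lower signal was not particular to DRE and Motif 1. The ratio was 0.859 for CGATA, 0.809 for CAGCTG, 0.775 for Motif 7, 0.894 for the CTCF core, 0.772 for the Zelda word and 0.963 for TCAGT. It was 1.03 for GAGAG and 1.00 for GATAA, but 0.919 and 0.966 over replicates. The part of GC content was not tested. DRE was in 8% of the 125 summits assigned to starts 1 to 100 bp apart (9.01 ± 0.750% over replicates). It was in 4.51% of the 355 assigned to starts over 500 bp apart (5.23 ± 0.373%). The classes between them, in order of spacing, had 7.58%, 4.72% and 6.71%, so the share did not fall steadily. Signal and word share one list, so these ratios are descriptions of it.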

How the data were processed

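ChIP-seq peak lists on dm6 were used as deposited. Per the file descriptions, the authors called a relaxed list of 30000 peaks for each of 3 replicates against a control, a pooled relaxed list of 30000, and a list thresholded by irreproducible discovery rate (IDR). For the aligner, the peak caller and the threshold, nothing is stated: not given in the sources used here. The dm3 lists were not used. The authors' deposited signal values ranked and described peaks within a list, and the deposited −log10 q served only as an alternative ranking. The deposited coordinates and summit offsets were used as given and are printed 1-based.

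Ensembl release 115 supplied 13945 coding genes with 19607 coding TSSs on the 6 main chromosome arms. All 5052 paired genes had identical positions in RefSeq, which supplied the dm6 sequence. A summit within 500 bp of several paired starts was assigned to the TSS combination with the nearest start, ties by the smallest spacing. Recovery used 100 bp, and motif windows 50 bp to each side. Summit assignment, motif search and the permutation test were checked on simulated data. Comparisons between promoter types used an exact 2-sided sign-flip permutation test over the replicates; peaks and genes are not replicates and were not tested. Depth is unknown from these files, so no counting error is given.

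Members, gene lists and motifs were chosen with earlier results of these data known. Genes named are the pairs of the 12 summits of highest signal, of the strongest summit per spacing class, of the most summits, of the 2 weakest summits and of the 3 strongest with DRE and with Motif 1, plus per kind up to 3 bound and 2 unbound paired genes, and CG9727. Of the genes chosen in this way 1 is not reported, and some appear only in counts. Python 3.11.15, pandas 2.3.3, numpy 2.4.6 and scipy 1.17.1 were used.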

Additional observations from a re-analysis of the deposited data

How the results depend on the processing

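Alternatives changed the TSS window, the partner distance, the TSS set, the assignment, the peaks used, the ranking, the matching distance and the motif window, or left out histone genes or a replicate. Of 499 recomputed values, 15 reversed and 24 (counts by over 1.5 times, untested values by over 1 SD between replicates) moved; of the other 460, tested differences kept their direction, whatever their size. The larger share of genes bound in pairs kept its direction under every alternative run (lowest difference 12.2 percentage points). The denser gap did too (lowest log2 ratio 2.25). So did the differences for DRE, its inner part, Motif 1, the TATA box and the homeodomain core. Those for the GATA word, the initiator and the GAGA word did as well, in the thresholded list and in the mean over replicates. Single replicates differed in direction for the GATA word in the 3948 strongest peaks (mean 0.31 points). They also did for the initiator with motif windows of 25 bp to each side (mean -0.68) and with partners within 500 bp or 2 kb. In the 3948 strongest peaks of each list the member count was 841 (836 over replicates), the log2 signal ratio was -0.13 (-0.091), the recovery difference was -1.08 points, the bound share of pairs over 200 and up to 500 bp apart exceeded that of the other pairs by 17.4 points (17.2) in place of 20.3 (18.5), and 83.6% (82.8%) of members lay between the starts in place of 77.9% (77.1%). With the complete relaxed replicate lists these were 2919 members, -0.47 points for recovery, 10.9 points by spacing and 60.6% between the starts. The spacing difference was 24.7 (22.9) points with a 200 bp window, 17.9 over replicates with 1000 bp, 21.5 (19.8) with partners within 500 bp, 19.4 with partners within 2 kb, 21.1 with outermost starts and 19.3 (17.4) without histone genes. The share between the starts was 68.8% (67.6%) with a 1000 bp window, 74.8% (74.1%) with partners within 500 bp and 73.8% (73.4%) with outermost starts. The E-box difference reversed with a 200 bp window (-0.70 points; -0.081 over replicates), Motif 7 (-0.053) and the CTCF core (0.0096) with motif windows of 25 bp to each side in the thresholded list. The Zelda word difference reversed over replicates with partners within 2 kb (-0.048), outermost starts (-0.088) and windows of 25 bp (-0.054) and 100 bp (-0.018; -0.020 in the thresholded list), and ranged from -0.084 to 0.29 when 1 replicate was left out. The cause was not tested, except that fewer or more peaks change the member count by construction. Settings for spacing, position and gene kinds were chosen after seeing the data. No paired analysis was possible because all samples form 1 group and there is no second group to pair them with; promoter types were compared within each replicate. Unknown depth limits every statement on absent summits.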

Other observations

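Summits lay slightly towards higher coordinates, at pairs and at single promoters alike. The plus-strand start was the nearer one for 829 summits and the minus-strand start for 632 (56.7%; 55.7%, 54.9% and 57.0% in replicates 1, 2 and 3). The median member lay 17 bp to the plus-strand side of the midpoint (16, 17.8 and 17 bp in the replicates). At single promoters, summits of plus-strand genes lay a median of 149 bp upstream of their nearest start and those of minus-strand genes 163.5 bp, a displacement in the same direction along the chromosome. The replicate values were 118 and 160 bp, 154 and 176 bp, and 154 and 164 bp. Whether the authors' summit positions carry a constant offset was not tested.

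Fbw5/CG9147, with the fourth highest signal among members, had its summit (2L 6066093) 6 bp inside the assigned CG9147 transcript, which starts at 6066087, while the annotation of the gene begins at 6065997.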
